A study of Mus musculus with 6 samples.

Results

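Immune checkpoint genes encode the surface receptors that restrain T cells and the ligands that engage them. Taken here are 10 of these genes, found by symbol among the 51912 mouse gene IDs of a count table: the receptor genes Vsir, Pdcd1, Btla, Lag3, Ctla4, Cd160 and Cd96, and the ligand genes Cd274, Tnfrsf14 and Cd47. They were measured by RNA sequencing in EL4, a chemically induced mouse T-cell lymphoma line labelled as wild type. RGFP966, a small molecule that blocks the histone deacetylase HDAC3, was given at 10 µM for 24 h (3 libraries), and vehicle was given for the same time (3 libraries). All 6 libraries come from 1 cell line. Since nothing in the labels tells separate cultures from repeat libraries, p-values measure only the spread between these libraries, which may be technical.

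Most checkpoint receptors carry tyrosine motifs or other cytoplasmic signals that dampen the T cell receptor once a ligand binds. PD-1, the product of Pdcd1, binds PD-L1 (Cd274) and PD-L2 (Pdcd1lg2), BTLA and CD160 share the ligand HVEM (Tnfrsf14), and CTLA-4 competes with CD28 for CD80 and CD86. LAG-3 binds MHC class II, CD96 binds CD155 (Pvr), and CD47 signals to SIRPα on phagocytes, which then spare the cell that carries it. VISTA, the product of Vsir, is a B7-related protein that keeps naive T cells quiescent. A T lymphoma cell can hold both sides of such a pair.

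Of the 10 genes, 9 passed the filter on low counts and 1, Ctla4, did not. With RGFP966 the receptor genes Vsir, Pdcd1, Btla and Lag3 were called higher and 0 of the tested genes were called lower, at an adjusted p under 0.05 in edgeR's quasi-likelihood test across all genes. DESeq2 and limma-voom likewise called 0 lower, and 0 were lower at an unadjusted p under 0.05 in all 3 tests. Across all 13484 genes tested, 11.4% were called higher and 11.9% lower. Lag3 passed the filter through its RGFP966 libraries alone, so to be tested it had to differ. Neither its call nor the separation of its libraries is support for the rest. Every RGFP966 library lay above every vehicle library for those same 4 genes, as it did for 17.8% of all genes tested, while the groups overlapped for the other 6. No ligand gene among the 3 was called. In bulk RNA a change in the share of cells that express a gene and a change in the RNA per cell cannot be told apart.

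**Figure D1:**
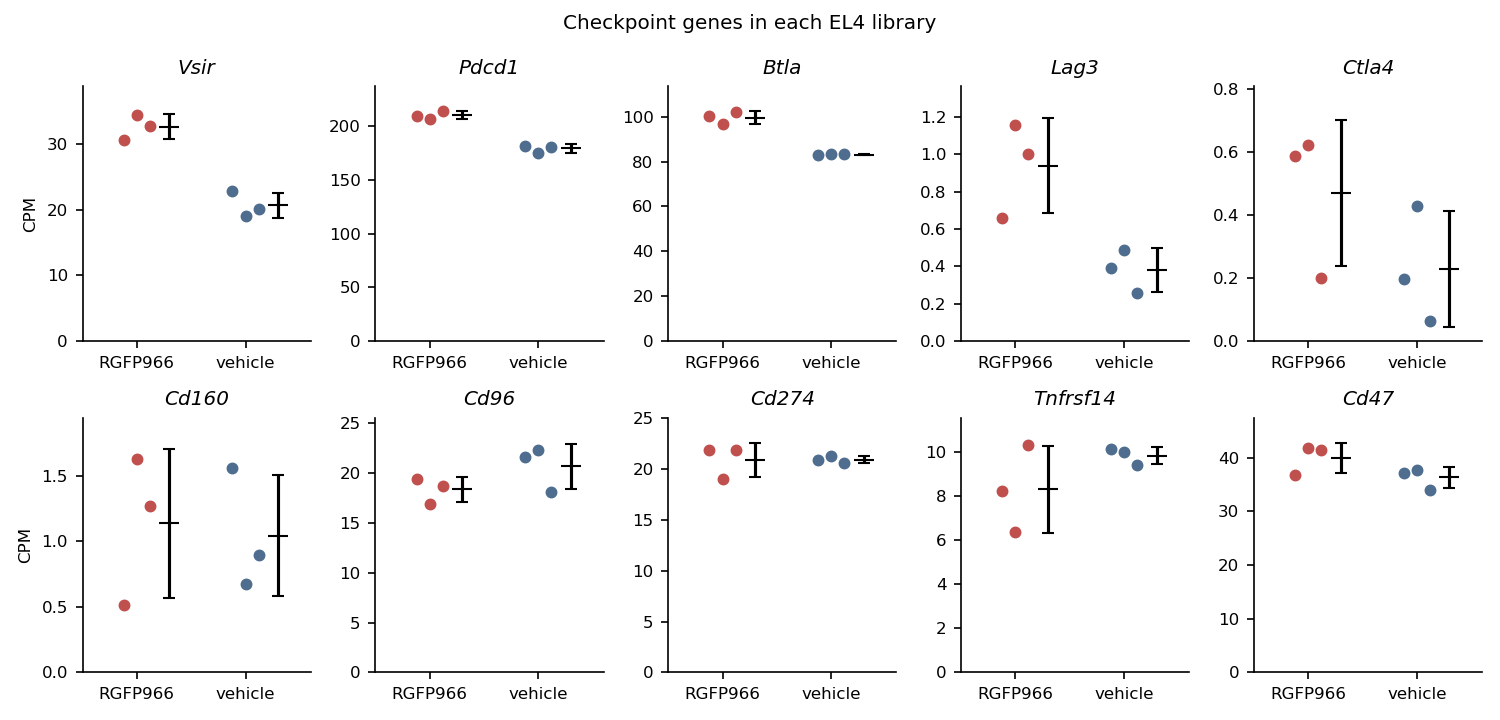
Scaled counts (CPM, reads of the gene per 1000000 counts of the library) of each checkpoint gene, with 1 point per library, RGFP966 libraries in red and vehicle libraries in blue, and the mean with its SD (n = 3) beside them in black. Each panel has its own axis from 0. Vsir, Pdcd1, Btla and Lag3 show RGFP966 libraries above all vehicle libraries, and Lag3, Ctla4 and Cd160 lie below 2 CPM.

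The upstream sequence of the 3 receptor genes that rose at solid levels is shown beside that of the ligand gene Cd274, whose level did not differ detectably. Each run holds the 250 bases before the RefSeq start site (GRCm38.p6), 5′ to 3′ on the gene's own strand. Capitals mark GGGCGG, the GC box bound by Sp1, GGAAA, the core bound by NFAT, the factor that carries calcium signals from the T cell receptor, and TGTGGT, a core bound by RUNX factors, each searched on both strands.
Vsir, chr10:60346601-60346850, plus strand: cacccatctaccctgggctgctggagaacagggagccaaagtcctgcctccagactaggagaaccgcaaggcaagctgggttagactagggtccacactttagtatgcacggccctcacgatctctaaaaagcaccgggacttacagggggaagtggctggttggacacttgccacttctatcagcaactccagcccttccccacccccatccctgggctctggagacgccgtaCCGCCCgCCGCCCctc
Pdcd1, chr1:94052554-94052803, minus strand: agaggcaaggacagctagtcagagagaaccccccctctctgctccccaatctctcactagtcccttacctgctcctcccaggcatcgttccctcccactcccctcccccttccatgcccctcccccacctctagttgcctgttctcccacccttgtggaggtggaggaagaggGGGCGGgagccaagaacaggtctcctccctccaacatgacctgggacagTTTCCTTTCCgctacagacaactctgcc
Btla, chr16:45224087-45224336, plus strand: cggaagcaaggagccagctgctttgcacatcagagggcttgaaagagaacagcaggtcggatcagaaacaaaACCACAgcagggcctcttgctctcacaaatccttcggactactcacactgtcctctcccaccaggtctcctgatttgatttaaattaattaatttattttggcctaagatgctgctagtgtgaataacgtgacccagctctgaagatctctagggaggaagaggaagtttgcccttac
Cd274, chr19:29367188-29367437, plus strand: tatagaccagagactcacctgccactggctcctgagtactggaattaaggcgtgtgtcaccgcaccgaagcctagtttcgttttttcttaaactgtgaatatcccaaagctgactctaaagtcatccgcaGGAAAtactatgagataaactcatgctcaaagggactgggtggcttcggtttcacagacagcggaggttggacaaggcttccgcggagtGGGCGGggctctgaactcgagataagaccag
The Vsir window held 2 GC boxes, which begin 16 and 9 bases before the start site, and 0 NFAT cores. The Pdcd1 window held 1 GC box, 77 bases before the start, and 2 adjacent NFAT cores on the opposite strand, 28 and 23 bases before it. The Btla window held neither of these and 1 RUNX core, 178 bases before the start, and the Cd274 window held 1 GC box and 1 NFAT core. Of 32851 windows of this length in the table, 32.7% held a GC box, 55.6% an NFAT core and 14.0% a RUNX core. GC content was 60.4% in the Vsir and Pdcd1 windows, 47.2% in Btla and 50.4% in Cd274, against a median of 52.4% over all windows. No marked motif was shared by the Vsir, Pdcd1 and Btla windows. RefSeq windows were at hand for 9 of the 10 genes, all but Lag3, and 6 more motifs were searched. These were the interferon gamma activation site (TTCNNNGAA), the interferon-stimulated response element, the NF-kB site, the AP-1 site (TGANTCA), the cyclic AMP response element (TGACGTCA) and the TATA box (TATAAA), and the 4 windows held none of them. Such matches are letters only and show no binding.

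The genes covered a wide range of levels. Levels between genes are compared as CPM per kb of exon, the union of a gene's annotated exons. Pdcd1 stood highest, at 109 ± 1.74 CPM per kb (SD, n = 3) with RGFP966 and 92.8 ± 1.96 with vehicle, above 96.8% of all tested genes on this scale. Btla followed at 29.3 ± 0.788 with RGFP966 and 24.5 ± 0.0114 with vehicle, and Cd96 at 8.40 ± 0.606 with RGFP966 and 9.47 ± 1.01 with vehicle. On this scale the libraries of these 3 genes did not overlap those of the next gene in either group. With the longest transcript as length, those of Pdcd1 and Btla stayed clear, but those of Cd96 overlapped those of the next gene, Cd47 with RGFP966 and Tnfrsf14 with vehicle. With RGFP966, Vsir came next at 6.52 ± 0.378, and its libraries overlapped those of Cd47 (6.37 ± 0.444), which overlapped Cd274 (5.78 ± 0.468), which overlapped Tnfrsf14 (5.77 ± 1.38). By longest transcript, Vsir (6.74) came after Cd47 (7.61) and Tnfrsf14 (7.07) with RGFP966. With vehicle, Vsir stood lowest of these 4 by either length, at 4.12 ± 0.384, and its libraries were clear of those of Cd274 (5.78 ± 0.0897), Cd47 (5.78 ± 0.322) and Tnfrsf14 (6.83 ± 0.261). Lag3, Cd160 and Ctla4 lay far below, at 0.447, 0.430 and 0.201 CPM per kb with RGFP966 and 0.179, 0.395 and 0.0983 with vehicle, and neighbours among them overlapped in the RGFP966 libraries.

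**Figure D2:**
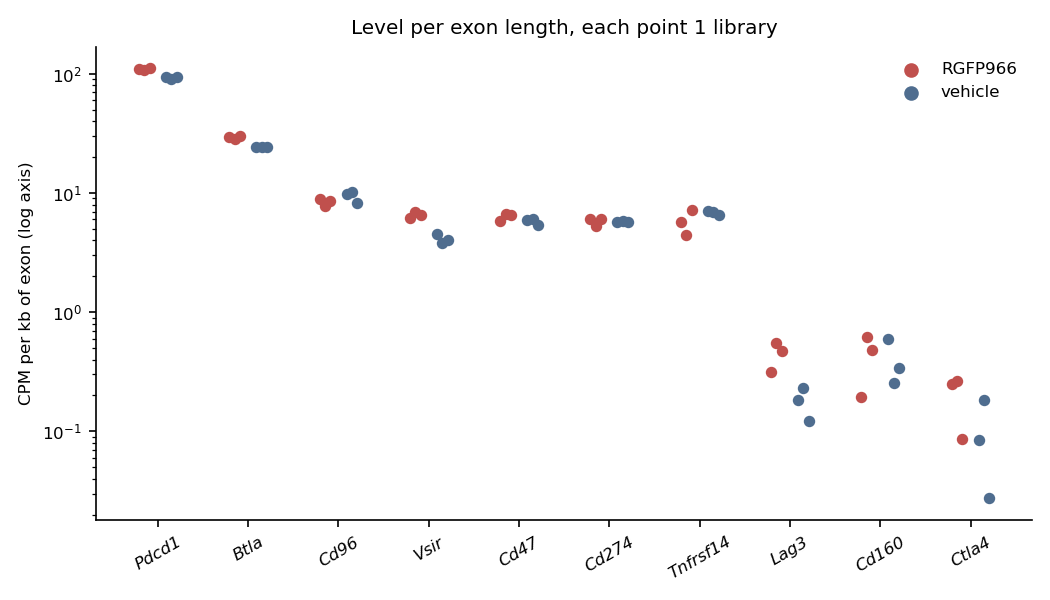
Level of each checkpoint gene per kb of exon on a log axis, ordered by the RGFP966 mean, with 1 point per library (red RGFP966, blue vehicle). Pdcd1 and Btla stand above the rest, Cd96, Vsir, Cd47, Cd274 and Tnfrsf14 lie between 3.80 and 10.2, and Lag3, Cd160 and Ctla4 lie below 0.62.

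Vsir had the largest difference among the genes at solid levels. It measured 30.7, 34.5 and 32.7 CPM in RGFP966 libraries 1 to 3, against 22.8, 19.1 and 20.1 CPM in vehicle libraries 1 to 3. The lowest RGFP966 library thus lay well above the highest vehicle library. The log2 fold change, RGFP966 over vehicle, was 0.66 ± 0.08 (SE, adjusted p = 1.04e-08), a rise of 58.3% with a 95% interval of 41.3% to 77.5%. Vsir (ENSMUSG00000020101) lies on chromosome 10 from 60346851 to 60372684 on the plus strand (GRCm38), inside the span of Cdh23, a cadherin gene read from the minus strand, and 0% of its exons overlap exons of another gene. Cdh23 itself measured 3.80 ± 0.208 CPM with RGFP966 and 4.16 ± 1.07 with vehicle (log2 fold change -0.12, edgeR adjusted p = 0.723).

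Pdcd1 measured 209.9, 207 and 214 CPM in RGFP966 libraries 1 to 3, against 182, 175 and 181 CPM in vehicle libraries. All 3 RGFP966 libraries were higher, by an amount several times the spread within either group. Its log2 fold change was 0.23 ± 0.04 (SE, edgeR adjusted p = 1.18e-05), a rise of 17.3% (95% interval 11.0% to 24.0%). The raw counts behind it were close, 2672 to 3193 with RGFP966 and 2794 to 2860 with vehicle, since the RGFP966 libraries held fewer reads in all, so the rise is relative to the other transcripts. Pdcd1 (ENSMUSG00000026285; chromosome 1, 94038305 to 94052553, minus strand) shares 0% of its 50-base exonic words with other annotated genes.

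Btla, which encodes an inhibitory receptor of the immunoglobulin superfamily, measured 100.4, 96.6 and 102 CPM with RGFP966, against 83.1, 83.2 and 83.2 CPM with vehicle. The groups were well apart, and the vehicle libraries were nearly level. The log2 fold change was 0.26 ± 0.05 (SE, edgeR adjusted p = 2.64e-05), a rise of 19.9% (95% interval 12.3% to 28.0%). Per kb, Pdcd1 was 3.71 ± 0.0475 times Btla with RGFP966 and 3.79 ± 0.0809 times with vehicle (SD, n = 3; two-sided exact permutation p = 0.200). The level of Vsir per kb was 0.0599 ± 0.00402 of that of Pdcd1 with RGFP966 and 0.0443 ± 0.00340 with vehicle with no overlap (two-sided exact permutation p = 0.100, n = 3, the smallest that 3 against 3 allows, here and for the ratios that follow). This ratio restates that Vsir rose more than Pdcd1 and is no separate result. Btla (ENSMUSG00000052013) lies on chromosome 16, 45224315 to 45257670, plus strand. The calls of Vsir, Pdcd1 and Btla held in all 17 other settings of the analysis.

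Lag3, the gene of a CD4-related receptor for MHC class II, was barely expressed. It had 9, 15 and 15 counts in RGFP966 libraries and 6, 8 and 4 counts in vehicle libraries. In scaled units that was 0.660, 1.16 and 1.00 CPM with RGFP966, against 0.391, 0.489 and 0.255 CPM with vehicle. The groups did not overlap, though the lowest RGFP966 library was close to the highest vehicle library. The log2 fold change was 1.29 ± 0.48 (SE, edgeR adjusted p = 0.0407), with a 95% interval of 1.27-fold to 4.84-fold. The filter asked for at least 0.663 CPM of unscaled totals in 3 libraries, a level reached by 3 RGFP966 and 0 vehicle libraries. Its adjusted p was 0.0882 with no filter, and the call was lost without vehicle library 1 (0.0861), 2 (0.0551) or 3 (0.148) and without RGFP966 library 2 (0.164) or 3 (0.116). Over all settings that tested it the adjusted p ran from 0.0305 to 0.164.

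Ctla4 and Cd160 were at the limit of detection. Ctla4 had 8, 8 and 3 counts with RGFP966, against 3, 7 and 1 with vehicle, and the groups overlapped. It was not tested after the filter, and with no filter its log2 fold change was 0.97 (edgeR adjusted p = 0.518). Cd160, which encodes a lipid-anchored receptor, had 7, 21 and 19 counts with RGFP966 and 24, 11 and 14 with vehicle, also with overlap (log2 fold change 0.13 ± 0.39 SE, edgeR adjusted p = 0.859). Its 95% interval, 0.631-fold to 1.89-fold, leaves room for sizeable differences in both directions that this depth could not show. Cd96, a receptor of T and NK cells, measured 19.4, 16.9 and 18.7 CPM with RGFP966, against 21.6, 22.3 and 18.1 CPM with vehicle. Vehicle library 3 lay within the RGFP966 range, and the log2 fold change of -0.17 ± 0.09 (SE) was not called (edgeR adjusted p = 0.202; 95% interval 0.779-fold to 1.01-fold).

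Among the ligand genes, Cd274 measured 21.9, 19.0 and 21.9 CPM with RGFP966, against 20.9, 21.3 and 20.6 CPM with vehicle. RGFP966 libraries lay on both sides of the vehicle range. The 95% interval of the fold, 0.886 to 1.13, bounds any change to less than that measured for Vsir (edgeR adjusted p = 0.991). Cd274 (ENSMUSG00000016496; chromosome 19, 29367455 to 29388095, plus strand) has 14.1% of its exon length overlapped by the antisense gene AC119228.1, which has no row among the IDs used, and since no source used here gives the strand setting of the counting, antisense reads in that stretch cannot be told from reads of Cd274.

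Tnfrsf14, which encodes HVEM, measured 8.22, 6.35 and 10.3 CPM with RGFP966, against 10.1, 9.97 and 9.39 CPM with vehicle. RGFP966 libraries 1 and 2 lay below all vehicle libraries and library 3 above them. The log2 fold change of -0.23 ± 0.14 (SE) was not called (edgeR adjusted p = 0.244), and it was -0.42 without RGFP966 library 3 (adjusted p = 0.0504) and -0.08 without RGFP966 library 2 (adjusted p = 0.761). Cd47 measured 36.8, 41.7 and 41.4 CPM with RGFP966, against 37.2, 37.7 and 34.0 CPM with vehicle. RGFP966 library 1 fell inside the vehicle range, and the log2 fold change of 0.14 ± 0.07 (SE) was not called after adjustment (edgeR adjusted p = 0.145; unadjusted p = 0.0487).

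**Figure D3:**
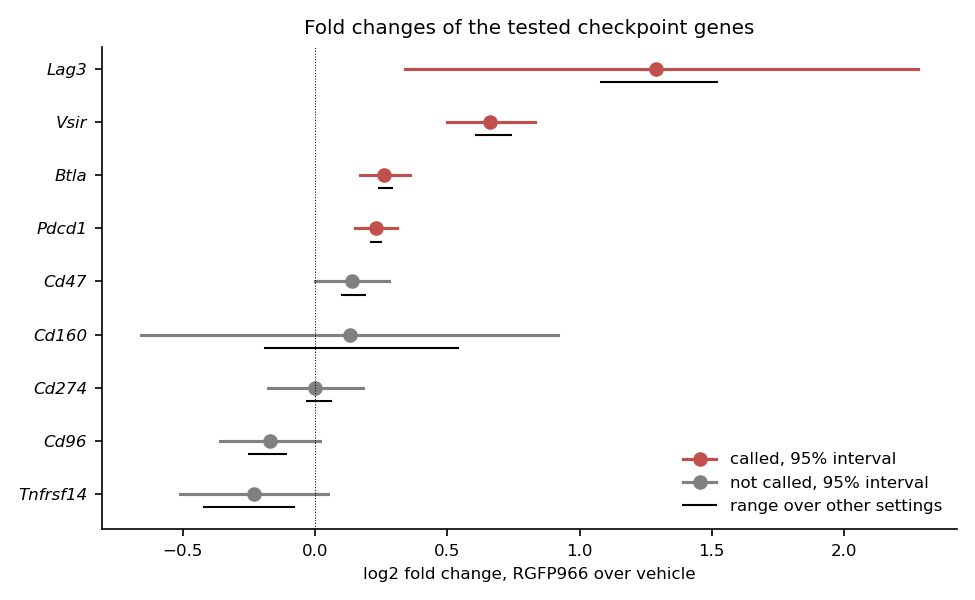
Log2 fold change, RGFP966 over vehicle, of the 9 tested checkpoint genes, as points with 95% intervals (red called at an edgeR adjusted p under 0.05, grey not called), and in black below each the range over the other settings. Vsir, Btla, Pdcd1, Lag3 and also Cd47, which was not called, lie above 0 with all their settings, and the interval of Lag3 is the widest of the called genes. Tnfrsf14 and Cd96, which were not called either, lie below 0 with all their settings.

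The balance of receptor to ligand was taken within each library. Per kb, Pdcd1 was 18.0, 20.5 and 18.3 times Cd274 with RGFP966, against 16.3, 15.4 and 16.4 times with vehicle (two-sided exact permutation p = 0.100, n = 3). Btla was 5.17, 6.44 and 4.18 times Tnfrsf14 with RGFP966, against 3.49, 3.53 and 3.75 times with vehicle (two-sided exact permutation p = 0.100, n = 3). The groups did not overlap in either ratio. Pdcd1 and Btla were each called higher on their own, so this separation carries their rises again and is no separate result. Pdcd1 was set against Cd274 alone. Pdcd1lg2, the gene of the other PD-1 ligand, had a fold of 1.51 (95% interval 1.15 to 1.99), against 1.17 (1.11 to 1.24) for Pdcd1. The ratio of Pdcd1 to Pdcd1lg2 was not computed, so the values for Pdcd1 speak of Cd274 only. The ratio of Cd96 to its ligand gene Pvr went the other way, also with no overlap. Cd96 was 2.78 ± 0.111 times Pvr with RGFP966 and 4.10 ± 0.153 times with vehicle (SD, n = 3; two-sided exact permutation p = 0.100). Pvr was itself called higher. No general shift toward receptor or ligand is thus shown. With 6 ratios computed and none able to go below 0.100, no ratio could pass a threshold of 0.05.

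**Figure D4:**
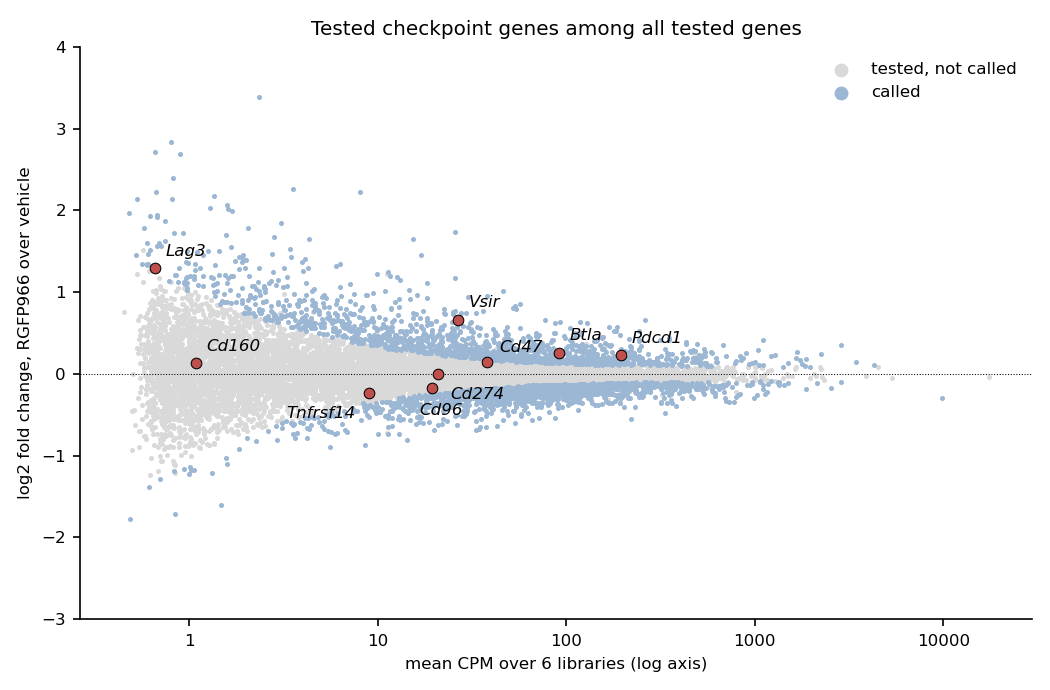
Log2 fold change, RGFP966 over vehicle, against mean CPM on a log axis for all 13484 tested genes (blue called, grey not called), with the 9 tested checkpoint genes in red. Btla and Pdcd1 lie among well expressed genes with changes near 0.25, and Lag3 lies at the low end where fold changes scatter most.

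Among the partners of these receptors, named whatever their result, Pdcd1lg2, the gene of the other PD-1 ligand PD-L2, rose. It measured 4.99, 4.65 and 5.95 CPM with RGFP966, against 3.65, 2.57 and 4.15 CPM with vehicle. The groups did not overlap, and the log2 fold change was 0.60 ± 0.20 (SE, edgeR adjusted p = 0.0206). The call was lost by DESeq2 (Wald test, adjusted p = 0.104), and on leaving out vehicle library 2 (0.157) or RGFP966 library 3 (0.127). Pdcd1lg2 begins 22.8 kb beyond the end of Cd274, and the ratio of Pdcd1lg2 to Cd274 per kb was 0.458 ± 0.0417 with RGFP966 and 0.306 ± 0.0758 with vehicle (SD, n = 3; two-sided exact permutation p = 0.100). H2-Eb1, the gene of an MHC class II beta chain, measured 5.89 ± 0.460 CPM with RGFP966 and 1.22 ± 0.221 with vehicle (log2 fold change 2.26 ± 0.23 SE, edgeR adjusted p = 6.77e-11). H2-Ab1, the gene of another class II beta chain, had 0 counts in all 6 libraries. The alpha chain gene H2-Aa, chosen after its values were seen, had 2, 6 and 2 counts with RGFP966 and 2, 2 and 0 with vehicle. Whether these cells form a class II protein that LAG-3 could bind was not tested. Pvr measured 18.8, 17.3 and 19.5 CPM with RGFP966, against 14.5, 14.9 and 13.0 CPM with vehicle, with no overlap (log2 fold change 0.39 ± 0.10 SE, edgeR adjusted p = 0.00242). Of the CTLA-4 ligands, Cd80 measured 4.44 ± 0.320 CPM with RGFP966 and 3.20 ± 0.740 with vehicle and was not called (edgeR adjusted p = 0.0940), and Cd86 had 0 counts throughout. Tnfsf14, whose product LIGHT binds HVEM, and Nectin1 also had 0 counts in all libraries. Sirpa, Igsf11, Selplg, Lgals3 and Fgl1, partners of CD47, VISTA and LAG-3, had at most 11 counts in a library and were not tested. Thbs1, a secreted ligand of CD47, had 7 to 10 counts with RGFP966 and 12 to 19 with vehicle and was not called (edgeR adjusted p = 0.374). It passed the filter through its vehicle libraries alone, so the separation of its groups is no support for a fall.

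Further inhibitory and costimulatory receptors of T and NK cells were listed beside the members. This list and those that follow were chosen with earlier results of these data known. Their medians and call shares are therefore no independent comparison with all genes. Of 26 listed receptor genes 25 were in the table and 12 were tested, of which 4 rose and 0 fell by edgeR (median log2 fold change 0.27, against -0.00 over all genes tested; 33.3% called, against 23.3% of all genes). DESeq2 and limma-voom also called 0 lower, as did all 3 tests at an unadjusted p under 0.05. Cd5, whose product restrains T cell receptor signals, measured 130.5 ± 4.84 CPM with RGFP966 and 108 ± 2.23 with vehicle (SD, n = 3). Cd28, the costimulatory receptor that competes with CTLA-4, rose by 0.23 ± 0.06 (log2, SE; edgeR adjusted p = 0.00340), Pecam1, a receptor with inhibitory motifs, by 0.26 ± 0.06 (adjusted p = 3.24e-04) and Cd200r1, an inhibitory receptor best known on myeloid cells, by 0.21 ± 0.06 (adjusted p = 0.00641). Cd200r1 lost its call without vehicle library 1 (adjusted p = 0.0727). Lair1, Klrg1, Klrc1, Havcr1, Timd4, Pvrig and Siglecg had 0 counts in all 6 libraries. Of 30 ligand and counter-receptor genes 9 were tested, of which Pdcd1lg2, H2-Eb1, Pvr and Cd48 rose and 0 fell by edgeR (median 0.30; 44.4% called, against 23.3% of all genes), and 11 had 0 counts. DESeq2 and limma-voom called 0 of these lower, and 0 were lower at an unadjusted p under 0.05. Cd48, the ligand of the receptor 2B4, rose by 0.30 ± 0.06 (SE, adjusted p = 7.66e-05).

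Another list holds genes that carry the inhibitory signal inside the cell. The phosphatase genes Ptpn6 and Ptpn11, whose products SHP-1 and SHP-2 bind PD-1 and BTLA, measured 0.03 ± 0.04 and -0.02 ± 0.04 (log2 fold change, SE) and were not called by edgeR. They were picked for this after their values were seen. Of 24 tested signalling genes 6 rose and 1 fell (median 0.03), so 29.2% were called, a share near the 23.3% of all genes tested. Dgka, a diacylglycerol kinase that limits Ras activation in T cells, measured 11.5 ± 1.04 CPM with RGFP966 and 5.87 ± 1.17 with vehicle (SD, n = 3), a log2 fold change of 0.97 ± 0.14 (SE, edgeR adjusted p = 6.41e-07). Ptpn22, a phosphatase of Src family kinases, rose by 0.38 ± 0.06 (adjusted p = 4.18e-06) and Pag1, an adaptor of the kinase CSK, by 0.22 ± 0.05 (adjusted p = 0.00145). The 1 fall, the adaptor gene Sh2d2a, measured -0.14 ± 0.04 (adjusted p = 0.0205), and its adjusted p was 0.114 and 0.120 on leaving out vehicle library 1 or 3, 0.0862 and 0.0654 on leaving out RGFP966 library 1 or 3, 0.0566 with upper-quartile factors and 0.0665 by DESeq2.

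Among transcription factors known to act on checkpoint genes in T cells, 11 of 36 tested rose and 1 fell (median 0.08), so 33.3% were called, against 23.3% of all genes tested. Ikzf3, an Ikaros family factor, had the smallest p of the list, at 212 ± 3.75 CPM with RGFP966 and 147 ± 3.97 with vehicle (SD, n = 3), a log2 fold change of 0.53 ± 0.04 (SE, edgeR adjusted p = 5.38e-15). Id2, an inhibitor of E proteins, rose by 0.39 ± 0.05 (log2, SE; edgeR adjusted p = 1.52e-07), Maf, a factor of inhibitory receptor programmes, by 0.62 ± 0.09 (adjusted p = 7.15e-07) and Runx1 by 0.35 ± 0.07 (adjusted p = 7.33e-05). Batf, an AP-1 family factor, was the 1 that fell, by 0.30 (adjusted p = 0.0236), with overlapping groups. Its adjusted p was 0.0713 and 0.134 on leaving out vehicle library 2 or 3, 0.0631 and 0.169 on leaving out RGFP966 library 2 or 3, and 0.113 by DESeq2. Tox, a factor of T cell exhaustion, and the NFAT genes Nfatc1 to Nfatc3 were not called, and neither was Irf1, which drives Cd274 after interferon gamma (log2 fold changes from -0.07 to 0.19). These were chosen after their values were seen.

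Genes that govern how much checkpoint protein reaches the cell surface were also measured, as transcripts only. Of 19 tested 3 rose and 2 fell (median 0.03), so 26.3% were called, a share near the 23.3% of all genes tested. Fut8, the core fucosyltransferase that modifies PD-1, measured 223 ± 7.85 CPM with RGFP966 and 161 ± 2.41 with vehicle, a log2 fold change of 0.47 ± 0.04 (SE, edgeR adjusted p = 2.95e-13). Spop, part of a ubiquitin ligase for PD-L1, rose by 0.21 ± 0.05 (adjusted p = 4.98e-04). The clathrin adaptor genes Ap1m1 and Ap2m1, whose products bind the tail of CTLA-4, fell by 0.31 (adjusted p = 2.00e-06) and 0.17 (adjusted p = 7.08e-04).

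**Figure D5:**
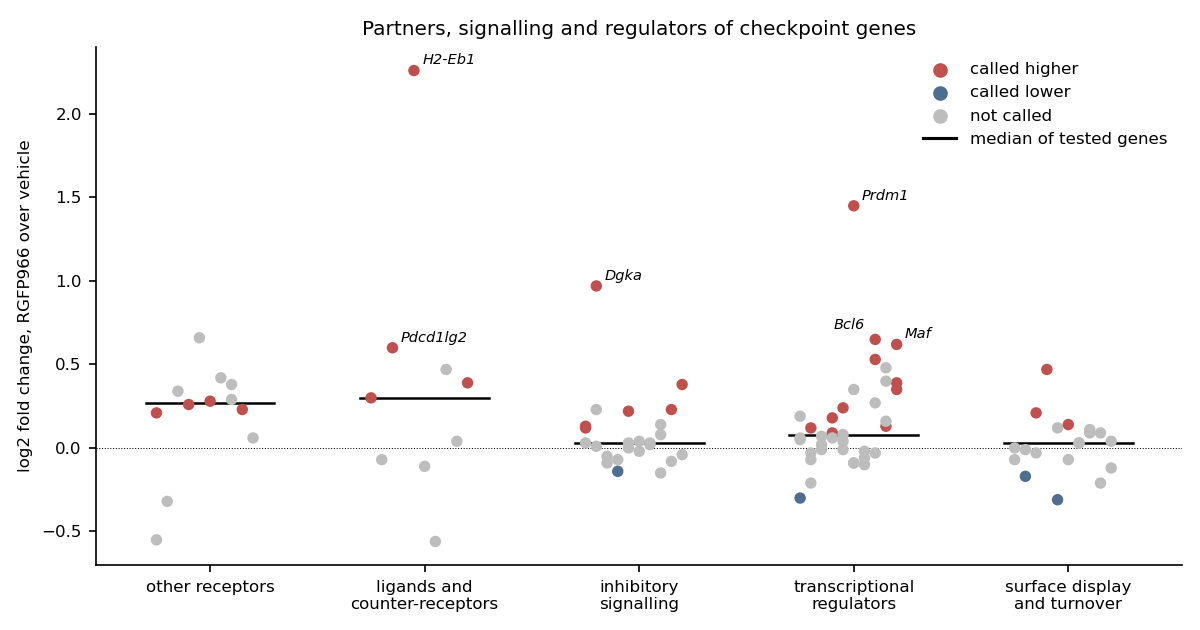
Log2 fold change, RGFP966 over vehicle, of each tested gene in 5 lists of partners, signalling genes and regulators (red called higher, blue called lower, grey not called by edgeR), with the median of each list as a black line. Medians are 0.27 for other receptors and 0.30 for ligands, and 0.03, 0.08 and 0.03 for the remaining 3 lists.

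The nearest tested gene on either side of each member was also read. Of the 20 nearest tested genes, 2 rose and 2 fell, a share near the 23.3% called of all genes tested, and the other 16 had log2 fold changes between -0.44 and 0.31. Psap, the prosaposin gene 44.3 kb from Vsir, rose by 0.25 ± 0.04 (SE, edgeR adjusted p = 8.06e-07), as did Pdcd1lg2 next to Cd274. Pank4 beside Tnfrsf14 fell by 0.20 (adjusted p = 0.00825; 0.0861 without RGFP966 library 1) and Rnf115 beside Cd160 by 0.19 (adjusted p = 0.00229). The genes whose 6 library values ran closest to those of Vsir, by root mean square difference of centred log2 CPM among 8528 genes of at least 10 CPM, were Plod1, a collagen lysyl hydroxylase (0.0558), Megf10, an engulfment receptor (0.0603), and Ablim1, an actin-binding protein (0.0617). Those closest to Pdcd1 were Aars2, a mitochondrial alanyl-tRNA synthetase (0.0155), Creb5, a transcription factor (0.0179), and Slc38a9, a lysosomal amino acid sensor (0.0184), which rose by 0.22 to 0.23. As these genes were picked for profiles like those of Vsir or Pdcd1, their rises follow from the choice and are no separate result. Slc38a9 (edgeR adjusted p = 0.0452) lost its call on leaving out any 1 library (0.0615 to 0.142), with no filter (0.0843), with GC content and length offsets (0.0728) and by DESeq2 (0.151).

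Library totals ran from 12935443 to 14768540 counts with RGFP966 and from 15380331 to 16451017 with vehicle. Hdac3, whose product the compound inhibits, measured 85.8 ± 2.49 CPM with RGFP966 and 89.0 ± 3.83 with vehicle (edgeR adjusted p = 0.482), which says nothing of enzyme activity. T cell markers were present, with 11 of 12 tested and 4 higher and 2 lower (54.5% called, against 23.3% of all genes tested). Their summed level was 2033 to 2095 CPM with RGFP966 and 2007 to 2031 with vehicle. Each other marker list had at most 4 tested genes, too few for a share to be read. NK cell markers summed to 0 with RGFP966 and at most 0.0650 CPM with vehicle, and the B cell marker Ms4a1 and the macrophage marker Adgre1 were at 0. Retina markers, listed since the extraction text speaks of retinas, summed to 4.33 to 5.01 CPM with RGFP966 and 4.38 to 4.75 with vehicle, with Gnat1 and Crx at 0. The B cell list summed to 511 to 523 CPM with RGFP966 and 536 to 559 with vehicle, of which Ighm made most, and 1 of its 3 tested genes rose (Cd22) and 1 fell (Ighm). Macrophage and dendritic cell markers summed to 43.0 to 47.9 CPM with RGFP966 and 37.3 to 40.6 with vehicle, with Flt3 the 1 of 4 tested that rose. Fibroblast markers summed to 54.6 to 58.0 CPM with RGFP966 and 44.1 to 45.1 with vehicle, with Pdgfra the 1 of 2 tested that rose and Col3a1 and Pdgfrb at 0, and endothelial markers to 5.28 to 6.41 CPM with RGFP966 and 3.49 to 4.01 with vehicle, with Tek the 1 tested, which rose, and Kdr and Cldn5 at 0. The part of these genes in the checkpoint results was not tested.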

How the data were processed

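The authors deposited raw read counts for 51912 Ensembl gene IDs, with 1 column for each library and 0 rows that name no gene. Per the submitters' processing notes, which give no role or order, HTSeq 0.6.0, HISAT2 2.1.0, Bowtie2 2.2.3, TopHat2 and CASAVA were used with build mm10. The annotation release and the strandedness of counting: not given in the sources used here. Symbols covered 99.46% of IDs, and positions and exon lengths came from GENCODE M21 on GRCm38, counted from 1.

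The counts of all 6 libraries were fitted in edgeR 4.0.16 (R 4.3.3) with group as the only term, after filterByExpr at its defaults and trimmed mean of M values scaling, with the robust quasi-likelihood F test and Benjamini-Hochberg adjustment over all 13484 genes. SE values were obtained by dividing the log2 fold change, without its sign, by the root of F. CPM values use the scaled totals, except summed marker levels. Alternatives used other scaling, filters, thinning, offsets for GC content and length, a replicate block, DESeq2 1.42.0, limma-voom 3.58.1, and each library left out. The functions were tested on simulated data. The members and lists were chosen with earlier results of these data known. The genes named were all members, fixed partners, up to 4 called genes of each list per direction, the 3 nearest profiles to Vsir and Pdcd1, and called neighbours. Others are said to be chosen later. Some genes that this rule takes in are not reported here. The variance between libraries of 1 group was 2.22 to 3.53 times that of counting error (chi-square over its degrees of freedom), so no library was treated as a duplicate. Same-numbered libraries correlated at -0.015, 0.126 and -0.007 in their deviations from group means, and differently numbered ones at -0.09 to 0.1. The highest value of all was thus that of the libraries numbered 2. The labels state no shared origin for a number, so the numbers were not taken as pairs in the main fit.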

Additional observations from a re-analysis of the deposited data

How the results depend on the processing

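The calls of Vsir, Pdcd1 and Btla and the lack of calls for Cd274, Tnfrsf14, Cd47, Cd160 and Cd96 were the same in every setting that gave a value, and 3 to 4 members were called without each library. All genes called numbered 3145, 2085 in the DESeq2 Wald test (the cause was not tested) and 2391 to 2821 without each library. Listed pathway genes called numbered 26 to 32 without each library. With the replicate number as a block, 3431 genes and 4 members were called, and no member's call changed. The numbers share no stated origin. Rises were 49.1% of calls, and 59.1% (1838 higher, 1270 lower) with upper-quartile factors, while the median of all genes moved by at most 0.02.

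Values near 0 changed sign. Cd274 measured -5.94e-04 with the replicate block, -1.63e-04 with no filter, -0.01 after thinning, -0.02 with the GC and length offsets, and -0.03 to 0.06 without each library. Cd160 measured -0.19 to 0.54 and Cdh23 -0.28 to 0.10 without each library. With the longest transcript as length, Btla stood at 30.6, Cd47 at 7.61, Tnfrsf14 at 7.07 and Vsir at 6.74 CPM per kb with RGFP966, so Vsir fell behind Cd47 and Tnfrsf14, and with vehicle Tnfrsf14 stood at 8.37. Lag3 could not be tested after thinning or at a minimum of 5 CPM, and DESeq2 gave it no adjusted p. Under about 1 CPM, depth limits what can be told of Lag3, Cd160 and Ctla4.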
